A study of Mus musculus with 4 samples.

Results

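The replication-dependent histone genes code for the core histones H2A, H2B, H3 and H4, which form the nucleosome, and for the linker histone H1. Members were all genes whose symbol begins with Hist1h, Hist2h, Hist3h or Hist4h, which took in 70 of the 49671 genes in the files: 6 H1, 20 H2A, 19 H2B, 12 H3 and 13 H4 genes. No measured value was used to choose them. GENCODE M21 annotates 3 of them as pseudogenes, among them Hist1h2al. The Hist1 genes, 56 in number, lie on mouse chromosome 13, the 10 Hist2 genes on chromosome 3, the 3 Hist3 genes on chromosome 11 and Hist4h4 on chromosome 6.

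The RNA came from CD3+ T cells taken from the spleens of 4 F1 females, 1 library per mouse, and all 4 samples form 1 group. Each mouse had a C57BL/6 mother carrying a heterozygous Xist deletion and a Mus musculus castaneus father, so the alleles of an autosomal gene could be told apart by strain. After enrichment on columns, the T cells were activated for 48 hours by anti-CD3 bound to the plate (1 µg/ml) together with anti-CD28 in solution (10 µg/ml), which stand in for antigen and costimulation. IMD-0354 at 2.5 µM, an inhibitor of the kinase IKKβ and so of NF-κB signalling, was present in all 4 cultures. No resting cells and no activated cells without the inhibitor were analysed here, so the levels are those of 1 condition. All Castaneus alleles came from the father, so that an effect of strain and an effect of the parent of origin cannot be told apart.

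Histone genes of these clusters are transcribed mainly while a cell copies its DNA, when new nucleosomes are needed on the daughter strands. Their messenger RNAs end in a short stem-loop in place of a poly(A) tail. The stem-loop is bound by SLBP, and the end is cut with the help of the U7 small nuclear ribonucleoprotein. NPAT, a coactivator driven by cyclin E and CDK2, turns the genes on together. Replacement histones such as H3.3 and H2A.Z are made from genes outside the clusters, throughout the cell cycle and with poly(A) tails. The libraries here were total RNA with ribosomal RNA removed, so RNAs without poly(A) were kept.

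Depth was similar across the 4 replicates, with 30539711 to 34992012 reads assigned to an allele in each. RPKM values (reads scaled to gene length and to library size) were scaled by the authors. T cell markers were present throughout, with 10 of 10 at 1 RPKM or more, and the 2 natural killer markers were below 1 RPKM. Of the 5 myeloid markers, 2 reached 1 RPKM, and the 5 summed to 51.7, 82.7, 30.9 and 21.2 RPKM in replicates 1 to 4, of which Lyz2 was the main part, and B cell markers summed to 10.5, 6.92, 4.61 and 5.16 RPKM and erythroid markers to 3.40 ± 1.83 RPKM (SD, n = 4). In bulk RNA, fewer cells of a type and less RNA per cell cannot be told apart. Among autosomal genes with 20 to 39 allelic reads, 36.4%, 84.2%, 45.2% and 13.5% were read from 1 allele only in replicates 1 to 4. Reads of thinly covered genes were thus least evenly split in replicate 2.

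The histone cluster genes were abundant as a group. They summed to 1969, 1841, 2160 and 2163 RPKM in replicates 1 to 4 (2033 ± 157, SD, n = 4). Replicate 2 had the lowest sum, and replicates 3 and 4 were nearly equal. Of the 70 genes, 58 (82.9%) had a mean of at least 1 RPKM, against 43.1% of 21734 protein-coding genes. At least 100 RPKM was reached by 6 genes (8.57%), against 0.824% of protein-coding genes. A few members carried most of the signal: the 6 highest held 56.2% of the sum and the 10 highest 69.4%, while the median member stood at 6.06 RPKM. Among members at 1 RPKM or more, the median coefficient of variation over replicates was 18.2%, against 10.1% for protein-coding genes at that level.

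**Figure D1:**
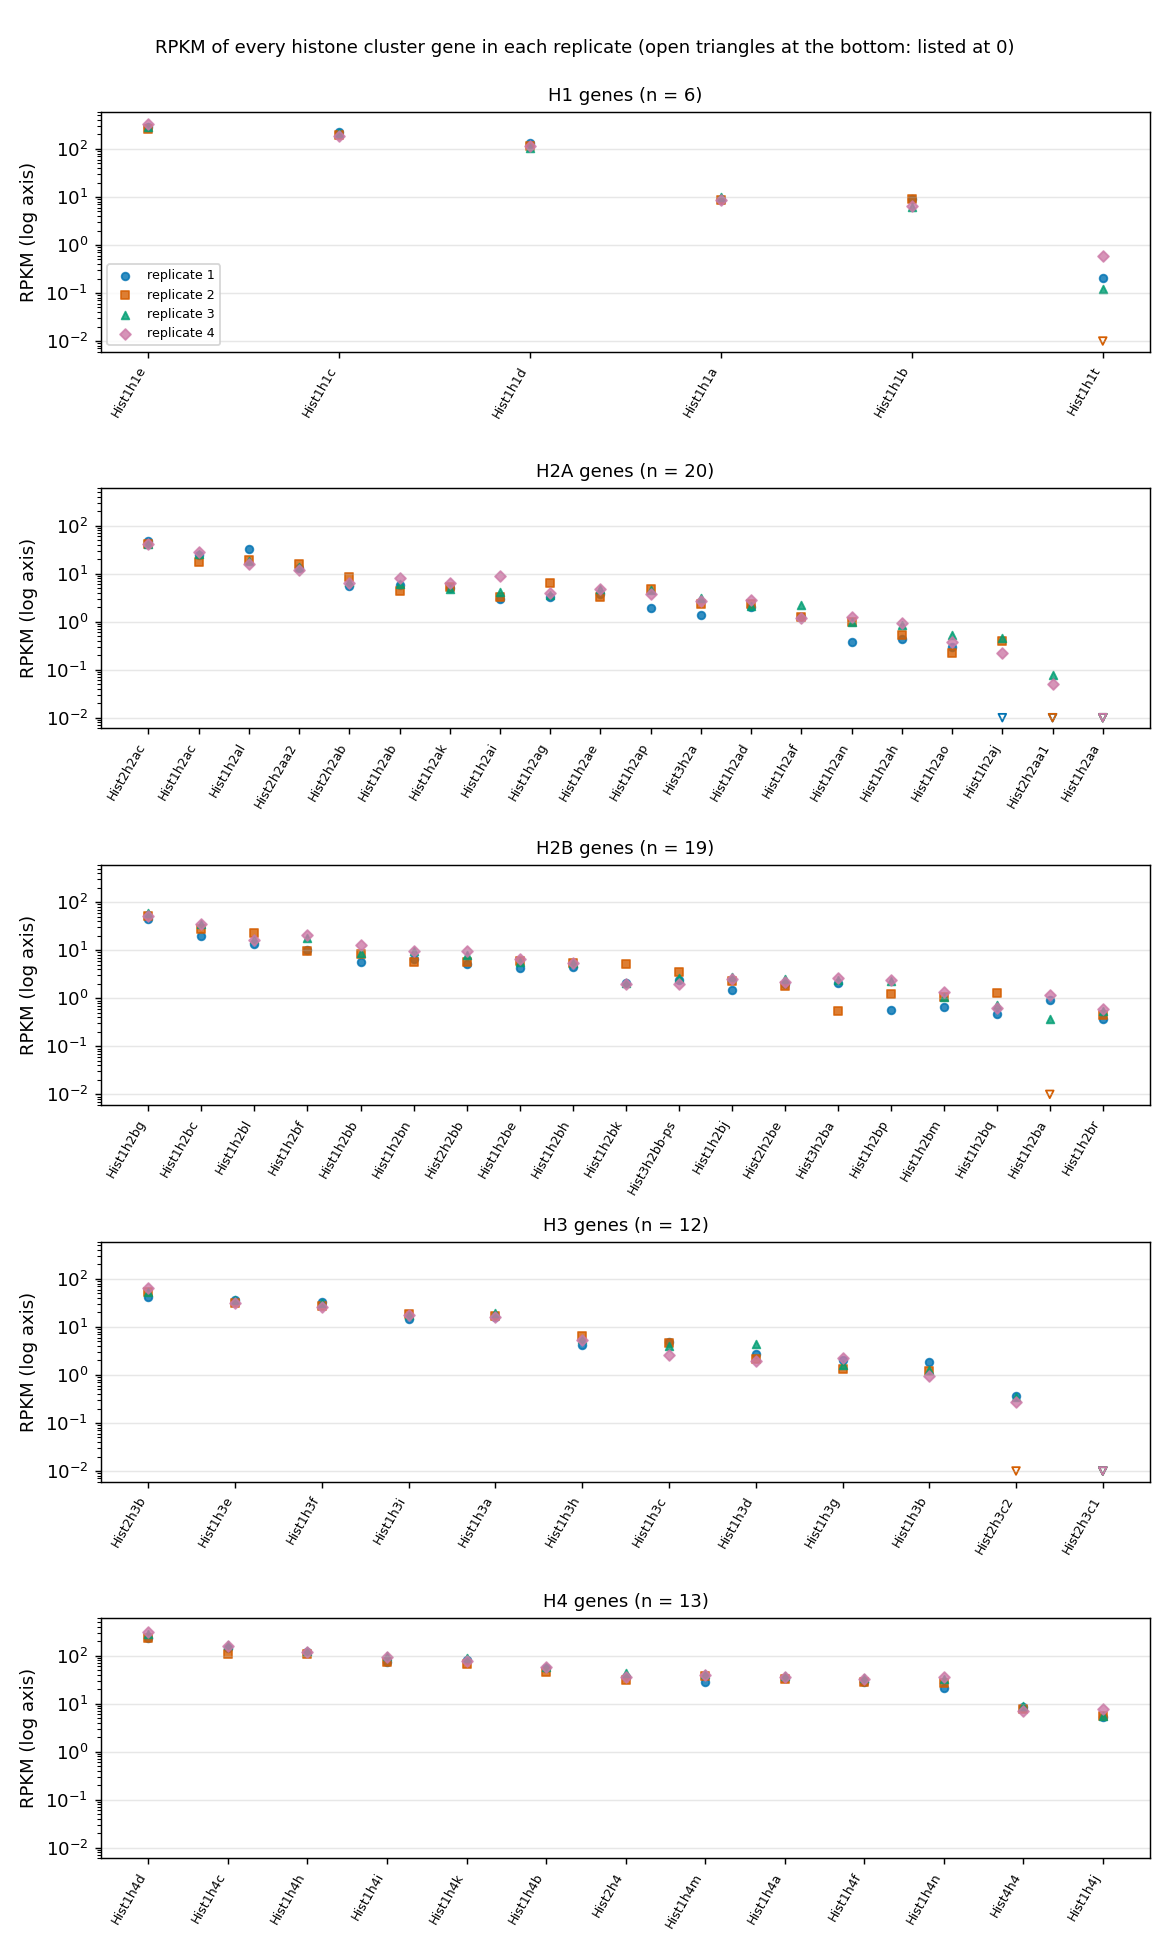
RPKM on a log axis of each of the 70 histone cluster genes in each of the 4 replicates, in 1 panel per histone type and ordered by the mean; open triangles mark genes listed at 0. The 13 H4 genes all lie above 5 RPKM, while the H2A, H2B and H3 panels reach down to genes near or at 0.

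H4 genes gave the largest sum of the 5 types, followed by H1. H4 summed to 867, 793, 1023 and 1009 RPKM in replicates 1 to 4 (923 ± 112, SD, n = 4), which was 45.4% of all histone cluster RPKM. H1 summed to 662, 588, 633 and 651 RPKM (633 ± 32.6, SD, n = 4), or 31.2%, from only 6 genes. H4 exceeded H1 in each replicate, and their ratio was 1.46 ± 0.151 (SD, n = 4).

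The other core histones were much lower. H3 genes summed to 159, 163, 176 and 168 RPKM (166 ± 7.51, SD, n = 4). H2B genes summed to 129, 160, 184 and 184 RPKM (164 ± 26.4, SD, n = 4), and H2A genes to 152, 137, 143 and 150 RPKM (146 ± 6.82, SD, n = 4). H3 lay above H2A in all 4 replicates without overlap, while the H2B values ran across both. The 4 core histones enter the nucleosome in equal numbers, yet H4 RNA stood 6.33 ± 0.715 times above H2A RNA and 5.53 ± 0.493 times above H3 RNA (SD, n = 4, ratio of summed RPKM). RPKM divides by the gene length the authors used. For 48 members, 2 of them listed at 0, RPKM times the exon length in GENCODE M21 came to whole numbers of reads within 0.05 read, whereas for 20 it did not and 2 others could not be matched to that annotation by gene ID. The 20 include Hist1h1e, Hist1h1d, Hist1h4d, Hist1h4c and Hist1h4h, all above 100 RPKM. The types were also ranked by recovered reads of the 48 genes, a ranking added once values were known. H1 led with 29133 to 40158 reads, from 2 genes and nearly all from Hist1h1c. H4 followed with 21236 to 31727 reads, from 10 genes that lack its 3 most abundant. The order of types thus rests on the gene lengths and on which genes are counted.

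**Figure D2:**
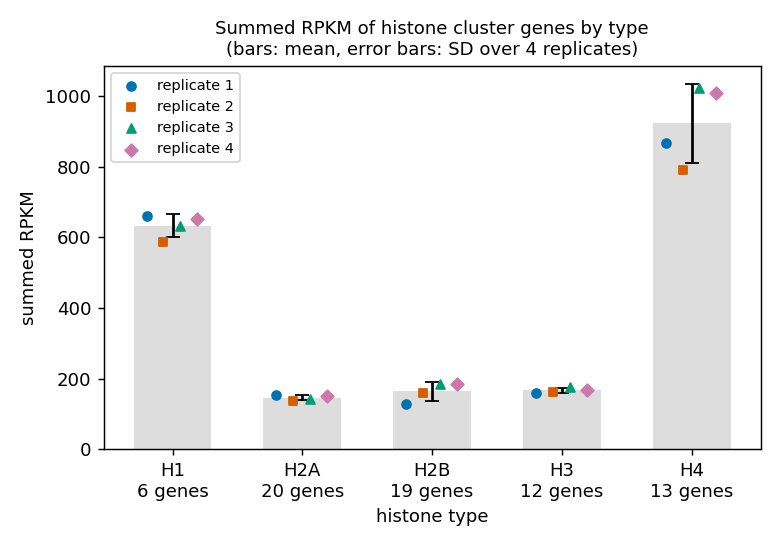
Summed RPKM of the histone cluster genes of each type; bars are the mean of 4 replicates, error bars the SD, and symbols the replicates. H4 (923 ± 112) and H1 (633 ± 32.6) stand far above H3, H2B and H2A. H3 and H2A do not overlap, and the H2B replicates span both.

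The stem-loop was sought in the GENCODE M21 transcripts of each member. It was found in 46 of 70 members (65.7%) and in 40 of 55380 other genes (0.0722%). A match describes the annotated letters only, and the 24 models without it had a median exon length of 402 bases. The stems differed by type, with 7 of 13 H4 genes holding the same 16 bases, while 26 of the other genes shared another form. The stretch from 6 bases before to 4 bases after is shown for the most abundant members of each type that hold it and for Hist1h4b, which has a rarer H4 form and was chosen after its values were seen. For H3 this is Hist1h3e, since the model of Hist2h3b, the most abundant H3 gene, does not hold it. Capitals mark the 16 bases of the stem and loop, written 5′ to 3′ in the DNA letters of the annotation.
Hist1h1e: cccaaaGGCTCTTTTCAGAGCCaccc
Hist1h1c: ccaaaaGGCTCTTTTCAGAGCCacca
Hist2h2ac: caaaaaGGCTCTTTTTAGAGCCacca
Hist1h2bg: cccaaaGGCTCTTTTCAGAGCCaccc
Hist1h3e: caaaacGGCTCTTTTAAGAGCCacct
Hist1h4d: accaaaGGCCCTTTTCAGGGCCacta
Hist1h4c: acaaaaGGCCCTTTTCAGGGCCaccc
Hist1h4b: acaaaaGGTCCTTTTCAGGACCactc

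All 8 held the run TTTT, of which the first T pairs in the stem and the rest lie in the loop, while the stem opened with GGCTC outside H4, GGCCC in Hist1h4d and Hist1h4c and GGTCC in Hist1h4b. Annotated transcripts of 18 members ran more than 200 bases past the stem-loop, and these had a median of 26.6 RPKM. The 28 members whose model ended within 200 bases of it had a median of 4.25 RPKM, and the 24 without it 5.36 RPKM. RPKM times exon length came to whole reads for 9 of the 18, 19 of the 28 and 20 of the 24. The part of gene length and of histone type in these medians was not tested. The set of 18 holds Hist1h1e, Hist1h1c, Hist1h1d, Hist1h4d and Hist1h4c. Whether their reads came from RNA ending at the stem-loop or past it cannot be read from gene totals.

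Promoters of 61 members were matched in RefSeq (GRCm38.p6). The 250 bases before the start were searched on both strands for the CCAAT box (CCAAT), the TATA box (TATAAA), the octamer (ATTTGCAT) bound by Oct factors, the H1 box (AAACACA) and the letters GGTCCG. All 6 H1, 17 H2A and 16 H2B promoters held CCAAT, but only 3 of 12 H4 promoters did (25%), against 34.5% of 27025 RefSeq promoters. The octamer stood in 7 of 17 H2A and 6 of 16 H2B promoters, against 1.61% of all. None of the 28 H1, H3 and H4 promoters matched held it. Some H2A and H2B genes lie head to head, so the bases searched overlap and 1 motif can be counted for both. Both genes held the octamer in the pairs Hist1h2ae and Hist1h2bg, Hist1h2ah and Hist1h2bk, and Hist1h2aa and Hist1h2ba. The H1 box was in 5 of 6 H1 promoters (6.22% of all promoters), and GGTCCG in 9 of 12 H4 promoters (6.82% of all). A match is a description and not a binding site. The 120 bases before the start are shown for the top 2 H1 and top 2 H4 genes, because they show the type-specific letters side by side, and for Hist1h2bg, the most abundant H2B gene. Capitals mark matches on either strand (ATTGG is CCAAT read from the other strand).
Hist1h1e, chr13:23622559-23622678, minus strand: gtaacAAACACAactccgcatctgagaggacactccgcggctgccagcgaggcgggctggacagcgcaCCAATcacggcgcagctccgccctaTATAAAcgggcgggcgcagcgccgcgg
Hist1h1c, chr13:23738687-23738806, plus strand: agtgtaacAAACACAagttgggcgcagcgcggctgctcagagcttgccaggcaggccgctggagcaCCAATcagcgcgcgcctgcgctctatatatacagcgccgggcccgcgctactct
Hist1h4d, chr13:23581448-23581567, plus strand: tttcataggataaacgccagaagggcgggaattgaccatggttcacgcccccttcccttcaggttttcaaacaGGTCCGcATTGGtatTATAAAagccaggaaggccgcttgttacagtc
Hist1h4c, chr13:23698459-23698578, minus strand: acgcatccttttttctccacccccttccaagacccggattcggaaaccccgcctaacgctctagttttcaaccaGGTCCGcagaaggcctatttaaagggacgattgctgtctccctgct
Hist1h2bg, chr13:23571280-23571399, plus strand: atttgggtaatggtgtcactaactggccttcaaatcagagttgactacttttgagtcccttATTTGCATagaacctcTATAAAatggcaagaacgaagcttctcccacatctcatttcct

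Both H1 promoters carried the H1 box and then CCAAT, and both H4 promoters carried GGTCCG. Hist1h2bg alone of the 5 had the octamer in this stretch.

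Of the linker histones, 3 genes made up nearly all H1 RNA. Hist1h1e (chr13:23620629-23622558, GRCm38, minus strand) was the most abundant member, with 293, 263, 291 and 332 RPKM in replicates 1 to 4 (295 ± 28.3, SD, n = 4), and ranked 83 among all genes. Hist1h1c (chr13:23738808-23740367, plus strand) had 221, 191, 218 and 188 RPKM (205 ± 17.2, SD, n = 4). Hist1h1d had 131, 115, 107 and 115 RPKM (117 ± 9.81, SD, n = 4). Each of the 3 kept its place in the order in all 4 replicates. Both Hist1h1a and Hist1h1b were more than 10 times below Hist1h1d, at 9.0 ± 0.671 and 7.80 ± 1.65 RPKM (SD, n = 4). Hist1h1t, the testis-specific H1, was listed at 0.204, 0, 0.123 and 0.595 RPKM. Exons of Hist1h1e overlap those of Hist1h2be on the same strand, so that reads in the shared stretch cannot be told apart by strand.

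Every H4 gene was expressed. The lowest of the 13 had a mean of 6.05 RPKM and 11 reached at least 10 RPKM. Hist1h4d (chr13:23581598-23582735, plus strand) had 234, 229, 286 and 309 RPKM (264 ± 39.6, SD, n = 4) and ranked 93 among all genes. Hist1h4c had 145, 107, 168 and 159 RPKM (145 ± 27.2, SD, n = 4). Hist1h4h had 121, 106, 124 and 120 RPKM (118 ± 8.31, SD, n = 4), below Hist1h4c in each replicate, by 1.20 RPKM in replicate 2 and by 24.5 to 44.2 RPKM in the others. Hist1h4i followed with 72, 74.1, 97.9 and 94.4 RPKM (84.6 ± 13.4, SD, n = 4) and Hist1h4k with 76.8 ± 9.06 RPKM. Replicate 2 was the lowest, or within 3 RPKM of the lowest, for each of these genes.

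H3 RNA came mainly from 5 genes. Hist2h3b, from the cluster on chromosome 3, led with 42.4, 52.8, 54.6 and 64.1 RPKM (53.5 ± 8.89, SD, n = 4). Hist1h3e had 36.1, 31.9, 35.8 and 31.1 RPKM (33.7 ± 2.60, SD, n = 4) and Hist1h3f 33.2, 26.7, 31.0 and 26.2 RPKM (29.3 ± 3.40, SD, n = 4), and Hist1h3e was the higher in each replicate, by 2.94, 5.21, 4.78 and 4.91 RPKM. Hist1h3i and Hist1h3a were level at 17.3 ± 1.77 and 17.2 ± 1.85 RPKM (SD, n = 4). The other 7 H3 genes were between 0 and 5.33 RPKM.

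H2A and H2B genes were the most numerous and had the lowest medians of the gene means, at 3.96 and 2.81 RPKM. Hist2h2ac had 47.2, 41.2, 40.6 and 42.1 RPKM (42.8 ± 3.03, SD, n = 4), the highest of the H2A genes. Hist1h2ac had 24.6, 17.6, 25.9 and 27.6 RPKM (23.9 ± 4.4, SD, n = 4). The pseudogene Hist1h2al came next with 33.1, 19.2, 18.1 and 16.1 RPKM (21.6 ± 7.76, SD, n = 4), highest in replicate 1 and within the spread of Hist1h2ac. Hist2h2aa2 had 13.8 ± 1.56 RPKM. Every 50-base stretch of its transcript (100%) also occurs in another member, and the closest, Hist2h2aa1, was listed at 0.0315 RPKM. Which of these copies the reads came from cannot be told. Of the 20 H2A genes, 6 had a mean below 1 RPKM. Hist1h2aa, known from testis, was listed at 0 in all 4 replicates.

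Among H2B genes, Hist1h2bg had 45.4, 50.6, 59.1 and 51.5 RPKM (51.7 ± 5.63, SD, n = 4) and Hist1h2bc 20.1, 28.0, 35.4 and 34.6 RPKM (29.5 ± 7.11, SD, n = 4). Hist1h2bl had 13.7, 23.3, 17.1 and 16.3 RPKM (17.6 ± 4.08, SD, n = 4). Hist1h2bf had 10.1, 9.66, 17.7 and 20.7 RPKM (14.5 ± 5.50, SD, n = 4). For Hist1h2bf, replicates 3 and 4 were well above replicates 1 and 2, whereas Hist1h2bl peaked in replicate 2. The testis-type H2B gene Hist1h2ba had 0.911, 0, 0.374 and 1.15 RPKM.

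The replicate that was most often lowest or highest differed between histone types. Over all 58 members at 1 RPKM or more, replicates 1 to 4 were the lowest for 23, 18, 4 and 13. Replicate 1 was the lowest for 10 of 16 H2B genes at 1 RPKM or more and the highest for none of them. For H4, replicate 3 was the highest for 10 of 13 genes and replicate 2 the lowest for 8 of 13. H3 went otherwise, with replicate 4 the lowest for 6 of 10 genes. For H2A, replicate 1 was the lowest and replicate 4 the highest for 6 of 14 genes each. For H1, replicates 2 and 3 were each the lowest for 2 of 5 genes. Members that share sequence are not independent, and no such count was made over all genes. Whether the types truly differ in this was not tested. With 1 library per mouse, a difference between mice and a difference between libraries cannot be told apart. The myeloid marker sum was highest in replicate 2, at 82.7 RPKM, and lowest in replicate 4, at 21.2 RPKM, and its part in these values was not tested.

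**Figure D3:**
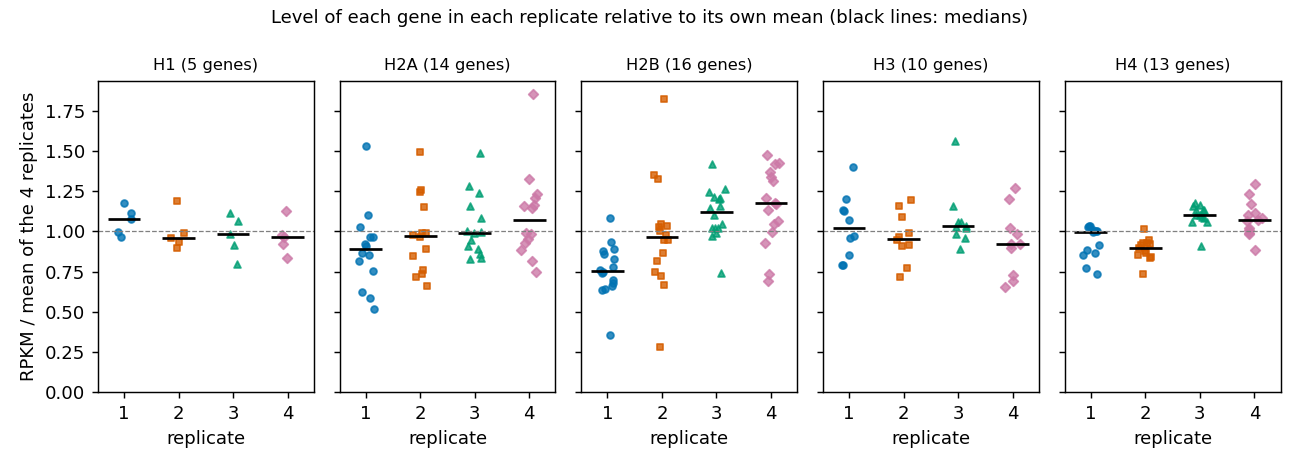
RPKM of each gene at 1 RPKM or more divided by its own mean over the 4 replicates, by histone type; points are genes and black lines medians. H2B points lie low in replicate 1, and H4 points lie low in replicate 2 and high in replicate 3.

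The large cluster on chromosome 13 gave 1856 ± 148 RPKM (SD, n = 4), or 91.3% of the sum. Hist2 gave 163 ± 9.89 RPKM, Hist3 6.96 ± 1.03 RPKM and Hist4h4 8.02 ± 0.860 RPKM (SD, n = 4). Within Hist1, gaps of more than 100 kb split the genes into position groups. The group of 28 genes that holds Hist1h1e, Hist1h4d and Hist1h1c gave 1510 ± 125 RPKM (SD, n = 4), or 74.3% of the histone sum, and contained all 6 members above 100 RPKM. The group of 18 genes that holds Hist1h4k gave 222 ± 21.9 RPKM (SD, n = 4) and the group of 5 genes that holds Hist1h4i gave 94.7 ± 13.1 RPKM (SD, n = 4).

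Many H2A and H2B genes lie head to head and share the stretch between them. There were 13 such pairs, on opposite strands with starts less than 500 bases apart. H2B was the higher member in 4 of 4 replicates in 7 pairs and H2A in 3 pairs. Means below 1 RPKM entered both counts. In the 7 pairs, Hist1h2ah, Hist1h2an and Hist1h2ao had 0.680, 0.912 and 0.354 RPKM, and Hist1h2bq, the partner of Hist1h2ao, had 0.780. In the 3 pairs, Hist1h2br had 0.493 RPKM. In the pair Hist1h2ae and Hist1h2bg, whose starts are 176 bases apart, H2B RNA was 11.9, 15.9, 12.2 and 10.5 times H2A RNA in replicates 1 to 4. The H2A partner, Hist1h2ae, stood at 4.19 ± 0.830 RPKM (SD, n = 4). The pair Hist2h2ac and Hist2h2be went the other way in all replicates, at 42.8 ± 3.03 against 2.13 ± 0.277 RPKM (SD, n = 4). Hist1h2ac and Hist1h2bc were near each other, with a ratio of H2B to H2A of 0.816, 1.59, 1.37 and 1.25, which lay below 1 only in replicate 1.

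The stretch between paired starts holds letters that face both genes. The 120 bases before Hist1h2ae on the minus strand and those before Hist1h2bg, shown above, overlap each other. On the Hist1h2ae side the CCAAT letters stand close to the start. The octamer lies just past these printed bases and within the 250 bases searched for both genes.
Hist1h2ae, chr13:23571221-23571340, minus strand: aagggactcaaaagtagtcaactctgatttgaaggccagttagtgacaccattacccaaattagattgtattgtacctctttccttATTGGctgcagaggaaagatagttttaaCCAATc

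**Figure D4:**
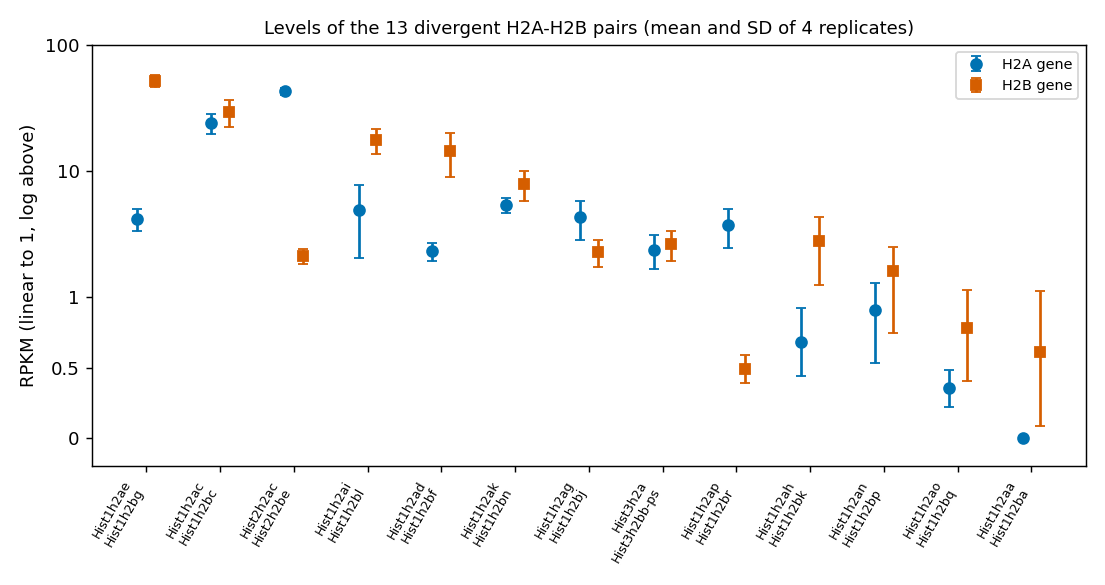
Mean RPKM and SD over 4 replicates of the H2A and H2B gene of each of 13 divergent pairs, ordered by their sum; the axis is linear up to 1 and logarithmic above. Hist1h2bg lies more than 10 times above Hist1h2ae, and Hist2h2ac far above Hist2h2be, while Hist1h2ac and Hist1h2bc lie close together.

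Allelic reads were compared next, to see whether the Castaneus and C57BL/6 copies were read equally. Of the 70 members, 48 had a mean of at least 20 allelic reads and 1 RPKM. The other 22 were not tested, 19 of them for too few reads, and 6 had no allelic read in any replicate. The ratio of Castaneus to C57BL/6 reads was tested with edgeR's quasi-likelihood test across 10268 autosomal genes, with Benjamini-Hochberg adjustment and a false discovery rate of 5%. Of the 48 genes, 15 were higher from Castaneus (31.3%), where 12.4% of all autosomal genes tested were called that way. A further 7 were higher from C57BL/6 (14.6%, against 15.6% of all). Together 22 members were called (45.8%, against 28.1% of all). The median size of the log2 ratio was 0.97 among the 48 members and 0.26 among all genes tested. All 15 genes called for Castaneus had a share above 50% in 4 of 4 replicates, and all 7 called for C57BL/6 a share below 50%.

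**Figure D5:**
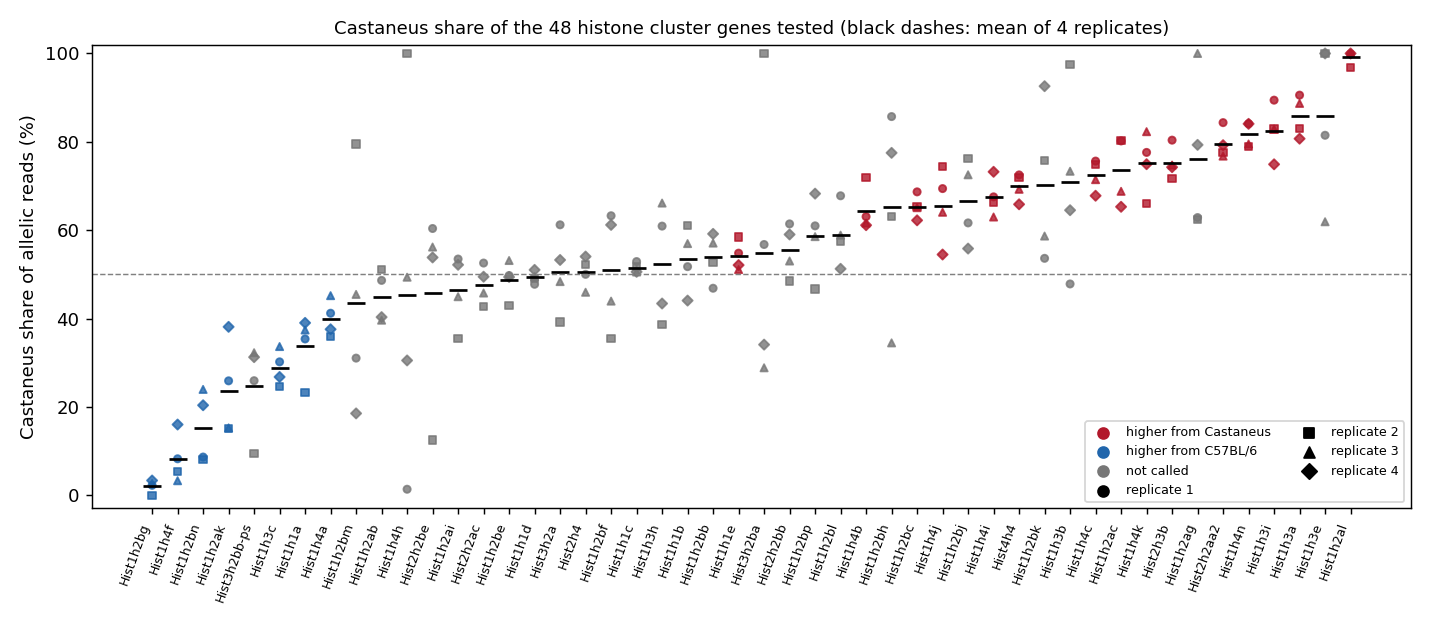
Castaneus share of allelic reads in percent for the 48 histone cluster genes tested, ordered by the mean; symbols are the 4 replicates, black dashes the means, red and blue the genes called higher from Castaneus and from C57BL/6. Shares run from 2.06% for Hist1h2bg to 99.2% for Hist1h2al, and several grey genes have replicates on both sides of 50%.

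Summed over the 51 members with a mean of at least 20 allelic reads, the Castaneus share was 59.2%, 57%, 56.9% and 55.9% in replicates 1 to 4 (57.2% ± 1.38, SD, n = 4). All autosomal reads gave 49.6% ± 0.0870 and genes of chromosome 13 gave 49.9% ± 0.0796. The histone share was above both in every replicate. By position, the group of 18 Hist1 genes was at 64.5% ± 3.65, the group of 5 at 67.8% ± 3.15 and the group of 28 at 55.4% ± 1.17 (SD, n = 4), and Hist2 at 56.4% ± 3.45, over tested genes. Hist3 was at 53.6%, 34.8%, 43.2% and 48.0% (44.9% ± 7.96, SD, n = 4), the only cluster with a mean below 50%. Of 38 Hist1 genes tested, 12 were called for Castaneus and 7 for C57BL/6, and of 6 Hist2 genes 2 for Castaneus. Over all autosomal genes tested, 12.4% were called for Castaneus and 15.6% for C57BL/6. The 3 Hist3 genes were tested and not called. Hist4h4 was called for Castaneus. Without Hist1h1c and Hist1h1e, which held many of the reads near equality, the share of the tested members was 62.4% ± 2.45.

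H4 held the most calls for Castaneus, 7 of 11 genes tested, with 2 for C57BL/6. Of all autosomal genes tested, 12.4% were called for Castaneus and 15.6% for C57BL/6. Hist1h4c was read from Castaneus at 75.6%, 74.9%, 71.4% and 67.8% (72.4% ± 3.61, SD, n = 4), from 3825 to 7264 allelic reads. Its log2 ratio was 1.42 (SE 0.09, adjusted p = 9.7e-07, edgeR's quasi-likelihood test), with all replicates on the same side. Hist1h4k followed at 75.2% ± 6.82, Hist1h4n at 81.7% ± 2.81 and Hist4h4, alone on chromosome 6, at 69.9% ± 3.04. Hist1h4b, the only called member outside the rule for named genes and so chosen after its values were seen, was at 64.4% ± 5.11. Hist1h4i and Hist1h4j were at 67.5% ± 4.27 and 65.6% ± 8.51. In the other direction, Hist1h4f was at 8.25%, 5.31%, 3.28% and 16% (8.21% ± 5.58, SD, n = 4) and Hist1h4a at 40.0% ± 4.09.

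Of the 3 most abundant H4 genes, Hist1h4d and Hist1h4h could hardly be read by allele. Hist1h4d had 16, 17, 2 and 6 allelic reads in the 4 replicates, at 264 RPKM, and was not tested. Hist1h4h had 74, 18, 77 and 59 allelic reads and a Castaneus share of 1.35%, 100%, 49.4% and 30.5%. Its replicates covered nearly the whole range, and it was not called. In replicate 2, 0 of 18 reads came from C57BL/6, which allows a share of up to 16.7%, counting error only. In that replicate, 84.2% of autosomal genes with 20 to 39 allelic reads were read from 1 allele only, so the true limit may be higher.

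Of the H3 genes, 3 were called for Castaneus and 1 for C57BL/6, of 7 tested. The shares over all autosomal genes tested were 12.4% and 15.6%. Hist1h3a was at 90.6%, 83.1%, 88.7% and 80.7% (85.8% ± 4.64, SD, n = 4), with a log2 ratio of 2.66 (SE 0.22, adjusted p = 5.38e-06, edgeR's quasi-likelihood test). Hist1h3i was at 82.5% ± 5.94 and Hist2h3b at 75.3% ± 3.67, again with each replicate above 70%. Hist1h3c was at 30.2%, 24.5%, 33.7% and 26.8% (28.8% ± 3.99, SD, n = 4). Hist1h3e, at 33.7 RPKM, had only 15 to 27 allelic reads per replicate and was not called, and Hist1h3f had too few to test.

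Neighbouring genes could differ in direction. Within 7394 bases of chromosome 13 (chr13:23757013-23764406) lie Hist1h4b, Hist1h4a, Hist1h3a and Hist1h1a, in that order. The first and the third were called for Castaneus, and the second and the fourth for C57BL/6. This stretch was chosen after the calls were seen, and how often neighbours differ was not counted. The call of Hist1h4a was lost without replicate 4 (adjusted p = 0.0576, edgeR's quasi-likelihood test). Hist1h1a was at 35.4%, 23.3%, 37.4% and 39% (33.8% ± 7.14, SD, n = 4).

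Of 9 H2A genes tested, 3 were called for Castaneus and 1 for C57BL/6, where 12.4% and 15.6% of all autosomal genes were. The calls for Castaneus were the pseudogene Hist1h2al, Hist2h2aa2 and Hist1h2ac. Hist1h2al (chr13:51202727-51203065) lies far from the other Hist1 genes and was read almost only from Castaneus, at 99.9%, 96.9%, 100% and 100% (99.2% ± 1.54, SD, n = 4). In replicate 4, 0 of 566 reads came from C57BL/6, which allows up to 0.530%, and in replicate 3, 0 of 706, which allows up to 0.425%, counting error only. Hist2h2aa2 was at 79.5% ± 3.41 and Hist1h2ac at 80.2%, 80.3%, 68.8% and 65.3% (73.6% ± 7.75, SD, n = 4). Since no 50-base stretch of the Hist2h2aa2 transcript is its own, its share cannot be credited to that gene alone. Hist1h2ak was at 25.9%, 15.2%, 15.2% and 38.1% (23.6% ± 10.9, SD, n = 4), the only H2A gene called for C57BL/6. Hist2h2ac, the most abundant H2A gene, was at 47.6% ± 4.28 and was not called.

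Of the 16 H2B genes tested, 1 was called for Castaneus and 2 for C57BL/6. Among all autosomal genes tested, 12.4% and 15.6% were called these ways. Hist1h2bg gave the lowest Castaneus share of the 48, at 2.24%, 0%, 2.67% and 3.33% (2.06% ± 1.45, SD, n = 4). Its log2 ratio was -5.51 (SE 0.65, adjusted p = 8.72e-05, edgeR's quasi-likelihood test), with 134 to 240 allelic reads per replicate. These were few for its 51.7 RPKM, as Hist2h2ac, at 42.8 RPKM, had 1287 to 1781. The total read number of Hist1h2bg was not recovered, so the part of its reads given to an allele is not known. In replicate 2, 0 of 141 reads came from Castaneus, which allows up to 2.13%, counting error only. Hist1h2bn was at 8.64%, 8.15%, 23.9% and 20.4% (15.3% ± 8.08, SD, n = 4). Hist1h2bc was at 68.7%, 65.4%, 65.1% and 62.2% (65.4% ± 2.64, SD, n = 4). Whether H2B differed from the other types in its rate of calls was not tested.

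Partners of a head-to-head pair were called alike where both were called. Of 6 pairs with both genes tested, 2 had both called, in each case for the same allele, and 4 had neither called. Hist1h2ac and Hist1h2bc were both higher from Castaneus, and Hist1h2ak and Hist1h2bn both higher from C57BL/6.

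The linker histones with the most reads were near equality. Hist1h1e was at 54.8%, 58.4%, 51.1% and 52.1% (54.1% ± 3.29, SD, n = 4), with a log2 ratio of 0.26 (SE 0.07, adjusted p = 0.0229, edgeR's quasi-likelihood test). It was the smallest of the called differences. Hist1h1c, with 20506 to 26642 allelic reads, was at 51.5% ± 1.14 and Hist1h1d at 49.3% ± 1.34, and neither was called.

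Of the 21 named genes called, 6 lost the call under an alternative of edgeR's quasi-likelihood test, in most cases at a similar fold. Hist1h1e, with a log2 ratio of 0.26, lost it without the block for replicate (0.24, adjusted p = 0.401). Leaving out replicate 1 gave 0.25 (adjusted p = 0.111) and leaving out replicate 2 gave 0.17 (adjusted p = 0.0512). Its 11 edgeR alternatives ranged from 0.00156 to 0.401 in adjusted p. Hist1h3c, at -1.29, lost it without replicate 1 (-1.32, adjusted p = 0.0976), replicate 3 (-1.40, adjusted p = 0.0587) or replicate 4 (-1.24, adjusted p = 0.103), in a range from 0.0223 to 0.103. Hist1h2ak moved from -1.75 to -1.52 without replicate 3 (adjusted p = 0.0571, range 0.00178 to 0.0571). Without replicate 4, Hist1h4a moved from -0.56 to -0.51 (adjusted p = 0.0576, range 0.000872 to 0.0576) and Hist1h4i from 1.08 to 0.95 (adjusted p = 0.0607, range 0.00151 to 0.0607). Hist1h4j moved from 0.97 to 0.89 without replicate 1 (adjusted p = 0.0895, range 0.00466 to 0.0895). None of the 21 changed direction under the 12 alternatives run, which add DESeq2's Wald test to these 11.

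How many of a gene's reads could be given to an allele varied widely. Over the members whose read number was recovered, the allelic reads were 68.9% of H1 reads, 53.5% of H2A, 47.8% of H2B, 35.9% of H3 and 37.6% of H4 reads. These rest on 2 H1, 16 H2A, 12 H2B, 8 H3 and 10 H4 genes, and the H1 figure is nearly all Hist1h1c. Hist1h1e and Hist1h1d are not in it, and Hist1h4d and Hist1h4h, with few allelic reads, are not in the H4 figure. Of 46 genes with a recovered read number above 0, 10 had under 10% of their reads assigned and 17 at least 75%. Hist1h4i and Hist1h4f were called from 6.97% and 7.28% of their reads, whereas Hist1h3a and Hist1h2ak had 100% assigned. Copies of these genes are near-identical. In 32 members more than 50% of the 50-base words of the transcript occur in another member, and in 6 none do. The sources used here do not say how reads that fit several copies were counted, so levels and shares of single members are uncertain, and the part of shared sequence in them was not tested. Exons of 26 members also overlap those of another gene, and the sources used here do not state which strand was counted.

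Most genes that make and process histone RNA and most S phase genes were present, while mitosis genes and some S phase genes were low. Of 24 processing and transcription genes found, 21 had at least 1 RPKM. Slbp, which binds the stem-loop, had 3.81, 3.53, 3.03 and 3.81 RPKM (3.54 ± 0.369, SD, n = 4), and Npat 13.1 ± 1.20 RPKM. Rnu7, the U7 RNA, was listed at 0, and E2f1 and Zfp473 were at 0.424 ± 0.104 and 0.155 ± 0.0878 RPKM. Of 14 S phase genes, 11 had at least 1 RPKM, Pcna the highest at 23.9 ± 1.08 RPKM, and the 14 summed to 91.6, 94.2, 91.4 and 98.8 RPKM. The S phase genes below 1 RPKM were Ccne2 (0.602 ± 0.126), Tyms (0.537 ± 0.0987) and Ccna2 (0.0980 ± 0.151), and Rrm2 was at 1.10 ± 0.0545 RPKM (SD, n = 4). None of the 4 mitosis genes reached 1 RPKM, with Mki67 at 0.535 ± 0.142 and Top2a at 0.773 ± 0.166 RPKM. The 12 replacement histone genes summed to 210 ± 3.13 RPKM, with H3f3b at 59.1 ± 3.20 and H2afz at 34.5 ± 2.72 RPKM (SD, n = 4). Of the 17 histone chaperones, all had at least 1 RPKM.

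By allele, 2 of 20 processing genes tested were higher from Castaneus, where 12.4% of all autosomal genes were, and 3 of 9 replacement histones were higher from C57BL/6, where 15.6% of all were. Of 16 chaperones tested, 1 was called in each direction.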

How the data were processed

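The authors deposited 2 tables. One lists, for every gene and replicate, counts of reads assigned to C57BL/6 and to Castaneus, which were not normalized, per the file headers. The other gives the authors' RPKM for the gene as a whole, without regard to allele. The submitters' processing notes name STAR 2.7.1a, featureCounts and mm10. The sources used here do not state allele assignment, the treatment of reads that fit several genes, duplicates, strand or gene lengths.

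Summed RPKM by type and cluster were described over 4 replicates without a test. Reads were recovered from RPKM times GENCODE M21 exon length (89.1% to 89.8% of low values over all genes were whole within 0.02 read). Allele counts were fitted with edgeR 4.0.16 (glmQLFit, glmQLFTest, R 4.3.3) with replicate as a block, since both alleles come from the same mouse, and library sizes set to the autosomal total of each allele. Genes needed a mean of 20 allelic reads and 1 RPKM. Ratios were tested two-sided with Benjamini-Hochberg adjustment at 5%. On simulated counts of 10268 genes, 85% of 4-fold and 67% of 2-fold changes were recovered and 0.0596% of unchanged genes were called. These counts were drawn independently for each gene and allele, without reads shared between similar copies, so the rates may not hold for the histone genes. Alternatives were TMM and DESeq2 1.42.0 size factors, DESeq2's Wald test, other filters, halved counts, no block and each replicate left out. PCR reads without molecular identifiers are not independent molecules, so limits from 0 reads (3 reads of the total) cover counting error only. Of the low read numbers that were whole, 65.3% to 75.2% per replicate were even. Whether 1 fragment was counted as 2 reads was not tested, and in that case the limits would be higher. Halved counts gave 15 calls for Castaneus and 7 for C57BL/6. The mice are labelled as biological replicates.

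Named genes were the 4 most abundant of each type, called members (up to 12 per direction), genes of the 6 strongest head-to-head pairs and the testis-type Hist1h1t, Hist1h2aa and Hist1h2ba. The members and lists were chosen with earlier results of these data known. Motifs used RefSeq promoters of GRCm38.p6, and figures matplotlib 3.10.9.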

Additional observations from a re-analysis of the deposited data

Results flagged for a closer look

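In 76 groups of 4 replicate values (RPKM or Castaneus share of the named genes and summed values), 4 held a replicate far from the other 3 (by Dixon's 95% criterion), where chance gives about 1 in 20. The RPKM of Hist1h1a was 10.0 in replicate 3, with the others from 8.62 to 8.69. The RPKM of Hist1h4j was 7.85 in replicate 4, with the others from 5.25 to 5.59. The Castaneus share of Hist1h2al was 96.9% in replicate 2, with the others from 99.9% to 100%. The Castaneus share of Hist2h2be was 12.5% in replicate 2, with the others from 53.8% to 60.4%, and replicate 2 was also the library in which 84.2% of thinly read autosomal genes were seen from 1 allele only.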

How the results depend on the processing

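Counts of calls were 15 for Castaneus and 7 for C57BL/6. They were 14 and 7 without the replicate block, 19 and 8 with DESeq2's Wald test, 13 to 15 and 5 to 7 with each replicate left out, and 9 for Castaneus among the 34 tested members that overlap no other gene (chosen after seeing the data). Over the 12 alternatives for each of 30 named genes, 346 results kept their side of the threshold, 10 lost the call and 4 gained it. None of the 21 called ones changed sign, whereas 5 genes that were not called did so in 9 results, with log2 ratios near 0 or, for Hist1h4h (-0.62 to 0.65 without replicate 1) and Hist2h2be (-0.26 to 0.41 without replicate 2), widely split replicates. Calls were gained by Hist1h1c with TMM (adjusted p = 0.012), DESeq2 size factors (0.0144) and DESeq2's Wald test (0.000108), in a range of 0.000108 to 0.528, and by Hist1h3e with DESeq2's Wald test (0.0244, range 0.0244 to 0.424). Without its highest member, the summed RPKM was 339 for H1, 103 for H2A, 113 for H2B, 113 for H3 and 659 for H4. The median over members within each replicate, averaged over replicates, in place of the sum was 63.1, 3.37, 3.22, 4.73 and 38.9 RPKM for H1, H2A, H2B, H3 and H4. The Castaneus share was 54.9% as the median over members and 60.7% without the most read member, Hist1h1c. By recovered reads of 48 members, 1 of 5 types kept its rank (chosen after seeing the data), and on log scales all 5 did. A mean of 20 allelic reads was missed by 19 members, among them abundant ones such as Hist1h4d, few of whose reads were given to an allele.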
